A study of Mus musculus with 4 samples.

Results

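Chemokines are small secreted proteins that guide leukocytes, and chemokine receptors are the G protein-coupled receptors on the guided cells. Both were followed here in dissociated small-intestinal adenomas of the mouse, in every gene whose symbol begins with Ccl, Cxcl, Cx3cl, Xcl, Ccr, Cxcr, Cx3cr or Xcr and goes on with a digit. The rule found 63 gene identifiers under 58 symbols among the 27514 genes that all gene tables share, 44 of them ligands and 19 receptors. In the barcodes assigned to a cell class, 47 members had at least 20 unique molecular identifiers (UMIs, each counting 1 captured transcript) and 46 of these are described with their values.

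The adenomas came from C57BL/6 mice aged 11 weeks, all labelled male. ApcMin mice are ApcMin/+;Lef1 +/+, and VApcMinL mice are ApcMin/+;Lef1 fl/fl;Villin-Cre, so every library carried the mutant Apc allele. Villin-Cre acts in the intestinal epithelium, and the leukocytes and stroma of VApcMinL tumors are not its targets. Each group held 2 libraries of several pooled tumors, with 10x Genomics 3′ reagents of version 2 (called kit 2) for replicate 1 and of version 3 (kit 3) for replicate 2. The number of mice behind a library is not given in the sources used here, so p-values take libraries as replicates and not mice. In the genotype comparison, with 2 libraries a group, they rest largely on a spread estimated over many genes together.

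The labels have limits that bear on the genotype comparison. Xist, a transcript of female cells, stood at 0.109, 785, 0.213 and 285 CPM (UMIs of the gene per 1000000 UMIs of the barcodes) in epithelial barcodes, listed as ApcMin then VApcMinL of kit 2 and ApcMin then VApcMinL of kit 3, so the libraries labelled VApcMinL carried it and those labelled ApcMin were near 0. All values of 4 libraries are given in this order. Lef1 in the Wnt-high epithelial barcodes was 11.1, 43.5, 56.8 and 24 CPM, higher in the library labelled VApcMinL than in the one labelled ApcMin in kit 2, and the reverse in kit 3. These are 3′ tags, and which exons are floxed is not given in the sources used here, so Lef1 counts are no check of the deletion. Groups are called by their labels throughout.

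The libraries held 44660305 to 128247396 UMIs. Barcodes with at least 1000 UMIs and at most 20% mitochondrial UMIs were kept, from 2146 to 4449 in a library. This mitochondrial limit removed 62.9% of the barcodes of ApcMin replicate 2 and 27.3% to 30.5% elsewhere. Kept barcodes were assigned to 8 classes by marker genes that include no chemokine or receptor. The epithelial class held 1614, 2148, 1836 and 3899 barcodes, T cells 188, 260, 66 and 220, plasma cells 284, 84, 24 and 31, myeloid cells 142, 84, 38 and 74, fibroblasts 122, 64, 41 and 20, endothelial cells 126, 66, 8 and 7, mast cells 9, 55, 22 and 1, and B cells at most 3 in a library. Kit 2 libraries shared 18 barcodes (11.4 would coincide if drawn independently) and kit 3 libraries 0. Levels are in CPM, the UMIs of a gene per 1000000 UMIs of the class in that library, and classes under 10 barcodes in a library entered no test. A level of 0 still allows 3 UMIs, which is 0.0298 to 0.109 CPM in epithelial profiles but 4.72 to 14.6 in T cells, 3.87 to 7.31 in myeloid cells and 3.67 to 15.4 in fibroblasts. Levels are counts of 3′ ends and were not divided by gene length.

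In the healthy small intestine, CCL25 and CCL28 made by epithelium attract lymphocytes and plasma cells that carry CCR9 and CCR10, and CCL20 attracts CCR6+ cells. CXCL1, CXCL2 and CXCL5 are neutrophil attractants acting on CXCR2, whereas CCL2 and CCL7 attract CCR2+ monocytes. CCL3, CCL4 and CCL5 are inflammatory ligands released by activated T cells and macrophages, and CXCL12 and CCL21 position cells through CXCR4 and CCR7.

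The members differed between the cell classes. Each class with enough barcodes was compared with the mean of the other classes on summed counts, with the library as a block, and a gene was called higher at an adjusted p under 0.05 and a log2 difference over 1 (quasi-likelihood test of edgeR, Benjamini-Hochberg adjustment over 9925 genes). Of the members, 39 passed the filter on low counts, 27 ligands and 12 receptors. Myeloid cells had 27 members called higher, 18 ligands and 9 receptors, where 15.8% of all genes tested were called. Fibroblasts had 13, all ligands, against 17.9% of all genes, and T cells 13, 5 ligands and 8 receptors, against 12.5%. Mast cells had 5 (6.72% of all genes), epithelial cells 4 (20% of all genes), plasma cells 2 (13.2%) and endothelial cells 2 (15.9%). The median log2 difference over the members was 4.96 in myeloid cells and -1.35 in epithelial cells, beside -0.01 and 0.16 over all genes. The filter itself favours members that are high in some class, and each of the 39 was called in at least 1 class. Of these, 17 were called in 1 class, 17 in 2 and 5 in 3 (Ccl2, Ccl4, Ccl7, Ccr9 and Cxcl2). The T cell call of Cxcl2 was lost at a floor of 2000 UMIs (edgeR, adjusted p = 0.0677), with a stricter gate (0.0505) and without the block (0.0539). It was also lost without ApcMin replicate 1 (0.165) or ApcMin replicate 2 (0.290). The fibroblast call of Cxcl2 was lost without ApcMin replicate 1 (edgeR, adjusted p = 0.0840). The myeloid call of Cxcr3 was lost with DESeq2 (adjusted p = 0.0722). In edgeR it was lost at 2000 UMIs (adjusted p = 0.0528), with no filter (0.0557) and without each library in turn (0.0575 to 0.177). The myeloid call of Cxcl1 was lost without ApcMin replicate 1 (edgeR, adjusted p = 0.0743) or VApcMinL replicate 1 (0.05245). Many members had 0 UMIs in several classes, where a fitted fold depends on the prior count, so levels are given in place of folds.

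**Figure D1:**
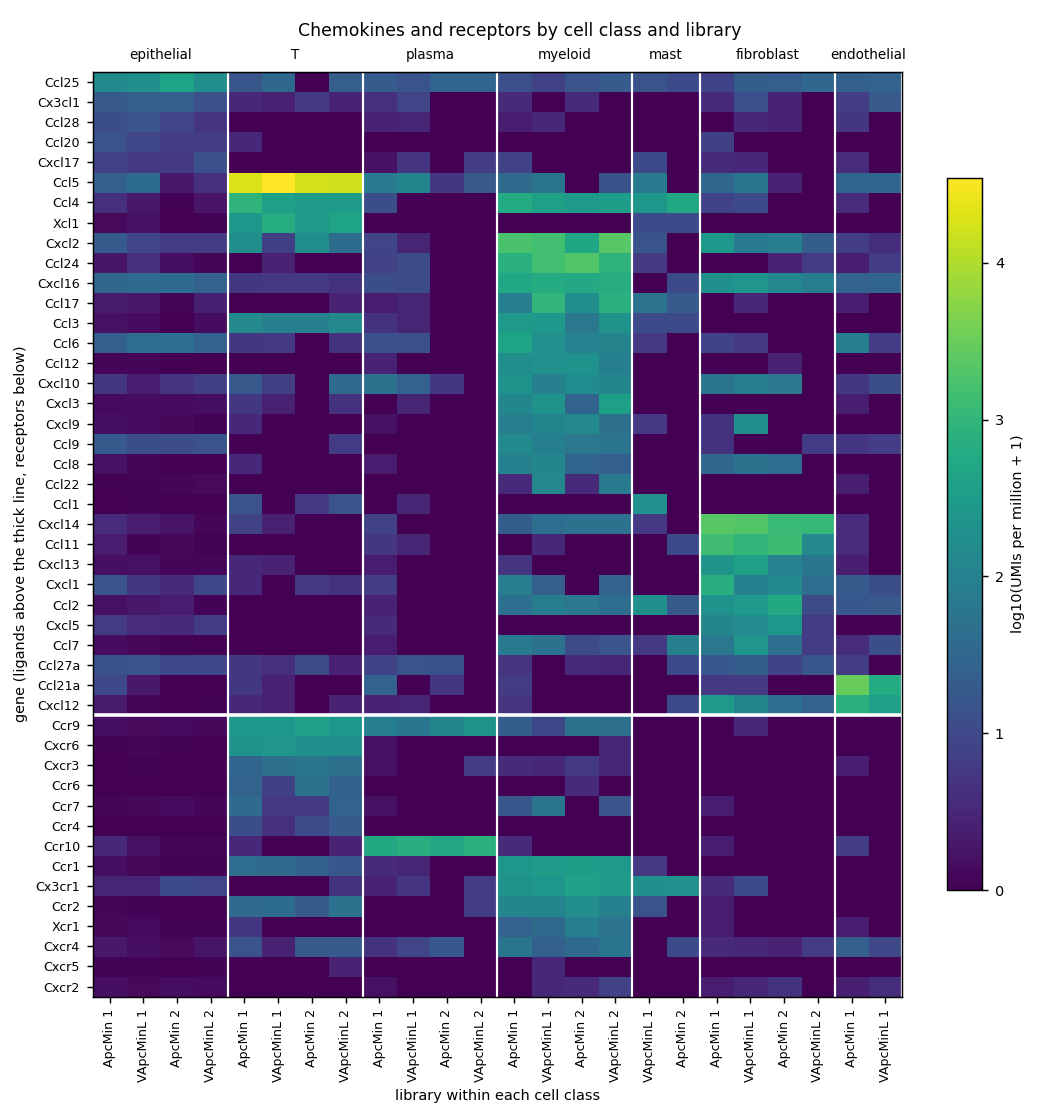
Heat map of log10(CPM + 1) for 46 members with at least 20 UMIs, 1 row per gene with ligands above receptors, and 1 column per library within each class of at least 10 barcodes. T cells are led by Ccl5, the epithelium by Ccl25 and fibroblasts by Cxcl14 or Ccl11, and Ccr10 is bright in the plasma columns alone.

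Ccl25, the CCR9 ligand of the small intestine, was the most abundant ligand of the epithelium and took 38.3% to 73.0% of its ligand UMIs. Its level was 141, 192, 433 and 164 CPM in epithelial cells. It ran at 6.46 to 19.2 in myeloid cells and 0 to 33.1 in T cells. Epithelial cells were called higher for Ccl25 (log2 3.55, adjusted p = 4.48e-12). At 1000 UMIs per barcode, 13.1% to 28.8% of epithelial barcodes held a Ccl25 UMI (50.8% to 74.3% without thinning), beside 0% to 3.47% of T cells, a class that should lack it. ApcMin replicate 2 was the highest of the libraries and stood alone.

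Its receptor Ccr9 was read in T cells at 258, 243, 394 and 246 CPM and in plasma cells at 89.4, 59.2, 114 and 218. Both classes were called higher (adjusted p = 2.36e-14 and 1.19e-11), as were myeloid cells at 8.61 to 51.1 (adjusted p = 1.96e-05). The epithelium itself held 0.248 to 0.508. Ccr9 was in 18.2% to 27.3% of T cell barcodes and 1.19% to 22.6% of plasma barcodes after thinning. The annotated span of Ccr9 overlaps Gm17200 and Gm17020 on the same strand, so reads there are uncertain.

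Ccl28, which attracts CCR10+ antibody-secreting cells, was a low epithelial gene at 11.2, 14.9, 8.06 and 3.77 CPM, and its receptor Ccr10 was the leading receptor of plasma cells at 579, 722, 554 and 785. Ccr10 took 77% to 90.8% of the receptor UMIs of plasma cells and was in 37.5% to 51.6% of their barcodes after thinning, against 0% to 0.372% of epithelial barcodes. The plasma call had an adjusted p of 1.16e-16. Ccl28 fell under the filter of the class test. With no filter the epithelium was called higher for it (adjusted p = 2.73e-15).

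Ccl20 and Ccr6 made the third such pair, both at low levels. Epithelial Ccl20 was 13.5, 8.22, 5.72 and 5.54 CPM, and 1 barcode of VApcMinL replicate 1 held 23.8% and 1 of ApcMin replicate 2 held 31.1% of its UMIs. Ccr6 in T cells was 26.7, 6.3, 48.7 and 24.7 CPM on 12, 4, 10 and 14 UMIs. The T cells were called higher for Ccr6 with edgeR (adjusted p = 5.81e-08) but not with DESeq2 (adjusted p = 0.141). Without a filter, the epithelium was called higher for Ccl20 (adjusted p = 2.43e-17).

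Within the epithelium, ligands differed between sub-gates set by Wnt targets (Wnt-high, 95 to 1041 barcodes), absorptive genes (enterocyte, 547 to 1041) and secretory genes (Paneth/goblet, 53 to 211). A Wnt-high barcode held at least 3 of Notum, Nkd1, Prox1, Wif1, Axin2 and Lgr5 and passed no other sub-gate. These comparisons were added after the data were seen and used the same test with the library as a block. Of 16 members tested, 5 were higher and 7 lower in Wnt-high than in enterocyte barcodes, with 59.8% of all 12037 genes called. Of 14 tested in Paneth/goblet against enterocyte barcodes, 8 were called, with 47.3% of all genes called. With so many genes called, these counts say little about chemokines as a group, and the members are described by their sizes.

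Ccl25 and Ccl28 were the members furthest below enterocyte barcodes in Wnt-high ones. Ccl25 was 22.5, 19.2, 24.1 and 18.1 CPM in Wnt-high and 357, 350.1, 682 and 677 in enterocyte barcodes, a log2 difference of -5.06 (edgeR, adjusted p = 3.01e-05). Ccl28 was 1.08, 1.87, 0.908 and 0.252 and 21.1, 25.5, 9.05 and 9.34, a log2 difference of -4.83 (edgeR, adjusted p = 4.30e-05). For both genes the Wnt-high and enterocyte libraries did not overlap. In barcodes of 10 to 99 UMIs, under the floor set for cells, Ccl25 ran at 118, 141, 99.6 and 80.7 CPM, above its level in Wnt-high barcodes.

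Ccl9 (log2 -2.74, edgeR adjusted p = 0.00386) and the membrane-bound Cx3cl1 and Cxcl16 shared this direction at smaller size. Cx3cl1 was 10.6, 15.9, 15.4 and 8.06 CPM in Wnt-high and 29.9, 31.6, 28.6 and 25.9 in enterocyte barcodes (log2 -1.78, edgeR adjusted p = 1.87e-04). Cxcl16 was 30.6, 18.7, 16.8 and 15.9 and 31.7, 40.0, 42.6 and 45 (log2 -1.48, edgeR adjusted p = 0.00387). ApcMin replicate 1 had almost equal Cxcl16 in both sub-gates, and the others did not overlap.

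Cxcl17, a mucosal chemokine, went the other way. Its level was 13, 11.2, 16.4 and 17 CPM in Wnt-high, 8.69, 11.5, 14.5 and 20.8 in Paneth/goblet and 1.73, 0.435, 0.176 and 1.7 in enterocyte barcodes. The log2 difference over enterocyte was 3.59 for Wnt-high (adjusted p = 8.05e-04) and 3.76 for Paneth/goblet barcodes (edgeR, adjusted p = 9.27e-04). Enterocytes were lowest in every library.

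Cxcl1 and Ccl27a were higher in Wnt-high barcodes as well. Cxcl1 was 23, 6.08, 3.18 and 11.4 against 6, 0.508, 0.571 and 2.33 CPM in enterocytes (log2 1.95, edgeR adjusted p = 0.00110), higher in Wnt-high in 4 of 4 libraries. Ccl27a was 20.3, 35.6, 22.7 and 9.91 against 6.4, 7.33, 4.3 and 4.54 (log2 1.37, edgeR adjusted p = 0.00220). Ccl27a overlaps Il11ra1 on the other strand and has near-identical copies among the members, so its reads are uncertain. Cxcl2 (log2 1.70, adjusted p = 0.0273) was called higher too, and Ccl5 (-0.69, 0.0310) and Ccl6 (-1.17, 0.0384) lower, with edgeR. Each of these 3 lost the call without VApcMinL replicate 2 and without at least 1 other library.

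Cx3cr1 was called higher in Wnt-high barcodes with a log2 difference of 2.93 (edgeR, adjusted p = 0.00789). Its levels there were 1.08, 1.4, 11.4 and 8.56 CPM on 4, 3, 25 and 204 UMIs, low in kit 2 and higher in kit 3. This was not particular to Wnt-high barcodes. In kit 3, Paneth/goblet barcodes held 19 and 63 Cx3cr1 UMIs, of 1450316 and 4332151 UMIs. Wnt-high barcodes held their 25 and 204 of 2201708 and 23818455. In enterocyte barcodes of ApcMin replicate 2 it was 13 of 22764254. The annotated span of Cx3cr1 covers Gorasp1, Csrnp1 and Xirp1 on the same strand. The gene tables also differ between kits, so these counts are uncertain.

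Ccl6 and Ccl9 belonged to the secretory sub-gate. Ccl6 was 59.9, 684, 599.9 and 326 CPM in Paneth/goblet and 2.67, 4.86, 1.98 and 1.77 in enterocyte barcodes (log2 6.98, edgeR adjusted p = 3.33e-05). Ccl9 was 133, 122, 36.5 and 97.4 and 4.8, 2.83, 1.84 and 2.65 (log2 4.77, edgeR adjusted p = 2.74e-06). The groups did not overlap for either gene, and ApcMin replicate 1 had the lowest Ccl6. In the epithelium as a whole Ccl6 was called higher too (edgeR, adjusted p = 0.00239), but not without ApcMin replicate 2 (0.0606). Both genes are best known as CCR1 ligands of myeloid cells, where they ran at 102 to 434 and 55.5 to 142. Cxcl5 was also higher in Paneth/goblet barcodes at 29.7, 13.1, 17.2 and 10.8 (log2 5.45, edgeR adjusted p = 2.16e-05), with 55.4% to 84% of its UMIs in 1 barcode of each library.

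**Figure D2:**
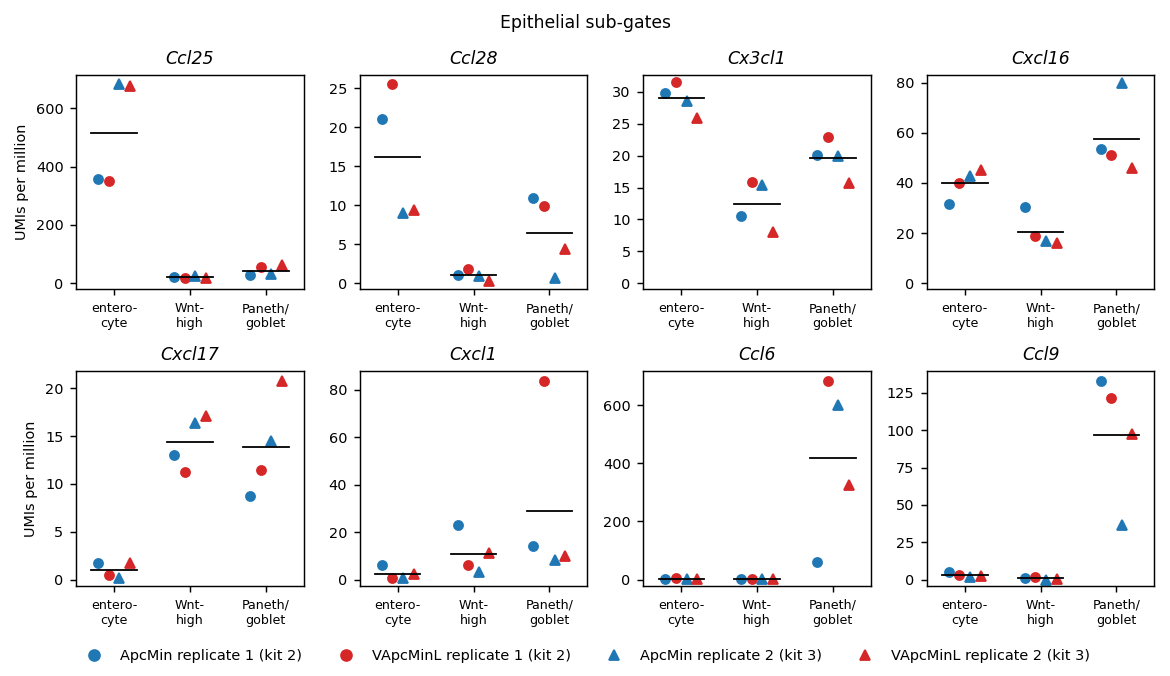
CPM (linear axes from 0) of 8 ligands in enterocyte, Wnt-high and Paneth/goblet barcodes, 1 point per library with the mean as a line, circles for kit 2, triangles for kit 3, blue for ApcMin and red for VApcMinL. Ccl25 and Ccl28 are high in enterocyte barcodes, Cxcl17 in the other sub-gates, and Ccl6 and Ccl9 in Paneth/goblet barcodes.

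The T cell gate needed 2 markers, and only 4 of those planned for it are in the shared gene tables. Whether other lymphocytes passed this gate was not tested, so T cell is the name of the gate here. T cells were dominated by Ccl5, a ligand that attracts T cells and myeloid cells. It ran at 20126, 34544, 17880 and 16106 CPM and took 92.8% to 96.7% of their ligand UMIs. VApcMinL replicate 1 was the highest. Ccl5 was in 62.1% to 81.5% of T cell barcodes after thinning, against 0.163% to 4.24% of epithelial barcodes. Barcodes of 10 to 99 UMIs held 526, 638, 45.8 and 48.5 CPM, higher in both kit 2 libraries, where epithelial Ccl5 was also higher (23.2, 39.9, 1.01 and 3.11). The part of free RNA in the epithelial value was not tested.

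The main T cell ligands stood in cytotoxic barcodes. T barcodes with at least 2 of Cd8a, Gzma, Gzmb and Nkg7 (41 to 183 barcodes) were compared with those holding Cd4, Foxp3, Ctla4 or Icos (15 to 55 barcodes), leaving out barcodes that met both, a comparison added after the data were seen. All 7 members that passed the filter were called, where 23.8% of all 2134 genes were. The filter lets a gene in through the group where it is high, so this count is no result about the members. Ccl5 was 39832, 44197, 28997 and 26218 CPM in cytotoxic and 128, 289, 0 and 326 in helper or regulatory barcodes (log2 7.55, edgeR adjusted p = 1.97e-48). Xcl1, the ligand of XCR1 on cross-presenting dendritic cells, was 470.4, 696, 397 and 575 and 0, 0, 0 and 125 (edgeR adjusted p = 7.10e-19). Ccl4 and Ccl3, released by activated lymphocytes, followed, Ccl4 with 1833, 495, 478 and 488 and Ccl3 with 245, 131, 146 and 221 in cytotoxic barcodes and at most 13.9 and 0 in the others. For these 4 ligands no library of the cytotoxic group overlapped the other group.

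The 3 receptors tested were lower in cytotoxic barcodes. Ccr9 was 127, 153, 251 and 217 CPM in cytotoxic and 457, 642, 774 and 263 in helper or regulatory barcodes (log2 -1.30, edgeR adjusted p = 1.19e-07). Ccr2 was 4.9, 2.25, 0 and 0 and 74, 337, 81.4 and 139 (edgeR adjusted p = 4.88e-17). Cxcr6, the receptor of CXCL16, differed least, with 118, 209, 113 and 189 and 262, 434, 346 and 187 (log2 -0.71, edgeR adjusted p = 0.00901). VApcMinL replicate 2 had nearly equal Cxcr6 in both groups, and the call was lost without either ApcMin library and without a filter (adjusted p = 0.208). Ccr6 fell under the filter, at 0, 0, 0 and 0 in cytotoxic and 74, 64.2, 163 and 83.1 in helper or regulatory barcodes.

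**Figure D3:**
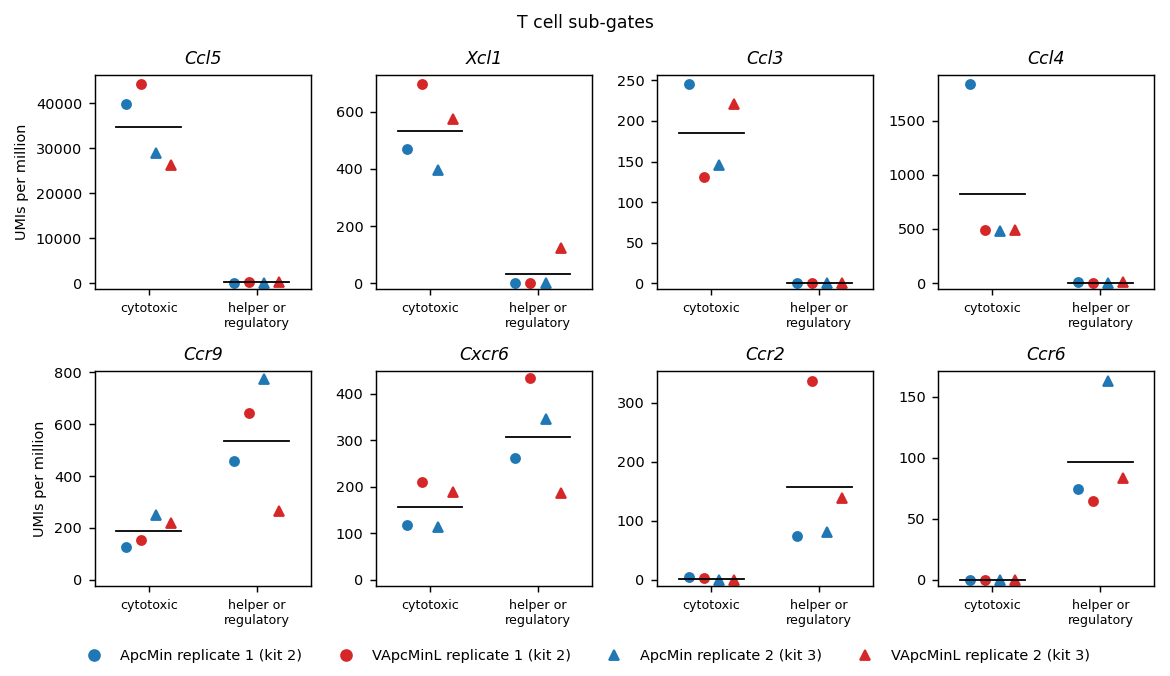
CPM (linear axes from 0) of 4 ligands and 4 receptors in cytotoxic and in helper or regulatory T barcodes, 1 point per library with the mean as a line, symbols as for the epithelial sub-gates. Ccl5, Xcl1, Ccl3 and Ccl4 are high in cytotoxic barcodes, and Ccr9, Ccr2 and Ccr6 are higher in helper or regulatory barcodes in each library.

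Over all T cells, Cxcr6 was 209, 235, 189.8 and 187 CPM and was detected in 16.4% to 20.1% of barcodes. Cxcr3, the receptor for CXCL9 and CXCL10, was 28.9, 45.7, 58.4 and 45.9. Ccr4 and Ccr7 were near the count limit of T cells at 3.15 to 19.4 and 4.73 to 37.8. Apart from Ccr4, which fell under the filter, these receptors were called higher in T cells with edgeR, at adjusted p from 1.99e-15 (Cxcr6) to 1.44e-04 (Ccr7). B cell barcodes, at most 3 in a library, held 5, 2 and 6 Ccr7 UMIs where any were found and are too few for a comparison.

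Myeloid cells expressed the broadest set of members. Their leading ligands were Ccl24, an eotaxin, at 754, 1439.6, 2009 and 849 CPM and Cxcl2 at 1689.5, 1435, 477 and 2253. ApcMin replicate 2 was highest for Ccl24 and lowest for Cxcl2. Cxcl16 was steady across libraries at 524, 619.7, 543 and 668, with T cells carrying its receptor Cxcr6 as above. Ccl4 was 617, 374, 275 and 354 and Ccl3 was 277, 260.4, 65.7 and 205. Adjusted p-values for these 5 ligands ran from 2.41e-17 (Ccl24) to 5.01e-13 (Cxcl2) with edgeR.

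The interferon-induced CXCR3 ligands were read in myeloid cells and fibroblasts. Cxcl9 was 85.1, 112, 136 and 46.9 CPM and Cxcl10 211, 94.7, 161 and 119.5 in myeloid cells. In fibroblasts Cxcl9 was 3.67, 182, 0 and 0. All 78 of the Cxcl9 UMIs in fibroblasts of VApcMinL replicate 1 were in 1 barcode. The fibroblast call of Cxcl9 was lost without that library (edgeR, adjusted p = 0.700). Fibroblast Cxcl10 averaged 58.1 CPM in the libraries labelled ApcMin and 42.0 in those labelled VApcMinL. Its fibroblast call (edgeR, adjusted p = 0.0152) was lost without ApcMin replicate 2 (0.0560) and without VApcMinL replicate 1 (0.135).

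Among myeloid receptors, Ccr1 was 251, 312, 331 and 286 CPM and Cx3cr1 210.1, 243, 399 and 322, with Ccr2 at 117, 109.7, 170.4 and 98.2. None of these had over 23.5% of its UMIs of a library in 1 barcode. Cxcr4, the CXCL12 receptor, was 56.7, 23.7, 36.5 and 55.5. Cx3cl1, the ligand of CX3CR1, was epithelial at 17.8, 22.7, 21.7 and 12.5 (adjusted p = 1.20e-07). Ccr1 was 40.1, 36.2, 24.3 and 15.9 in T cells, lower than in myeloid cells in every library.

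Macrophage barcodes, with at least 3 of C1qa, C1qb, C1qc, Ms4a7 and Apoe (23 to 109 barcodes), were set against the other myeloid barcodes (14 to 32) in a further comparison added after the data were seen. Of 19 members tested, 8 were called, where 20.8% of 2922 genes were. Here too the filter lets a gene in through the group where it is high, so this count is no result about the members. Cx3cr1 was 288, 329, 647 and 468 CPM in macrophage and 9.28, 16.2, 58.5 and 32.8 in other barcodes (log2 3.96, edgeR adjusted p = 3.10e-05). Ccl12 was 254, 273, 353 and 135 and 0, 0, 0 and 0 (edgeR adjusted p = 1.41e-04). Xcr1, a marker of cross-presenting dendritic cells, went the other way at 0, 2.96, 4.2 and 0 and 92.8, 129.8, 211 and 164 (edgeR adjusted p = 3.99e-05). In none of these 3 did the groups overlap. Ccr1, Cxcl16 and Cxcl10 were also higher in macrophage barcodes, at log2 differences of 1.21, 1.45 and 3.70. Ccl9 was lower (log2 -1.18, edgeR adjusted p = 0.0144). That call was lost without VApcMinL replicate 1 (log2 -1.04, edgeR adjusted p = 0.0638), without VApcMinL replicate 2 (-1.13, 0.0581) and without the library block (-1.06, 0.181). The dendritic cell markers Cd209a and Clec9a were at 30.1 to 105 and 17.2 to 41.4 over all myeloid cells.

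Fibroblasts were marked by Cxcl14 and Ccl11. Cxcl14, an ancestral chemokine of stroma and epithelium, was 2283, 2115, 1147 and 1050.5 CPM, and was in 48.8% to 67.2% of fibroblast barcodes after thinning. Ccl11 (eotaxin) was 1375, 927, 1283 and 133, far lower in VApcMinL replicate 2, which had 20 fibroblasts. Cxcl13, which attracts CXCR5+ B cells, was 224, 401, 102 and 56.4. Cxcr5 itself had 22 UMIs in all gated barcodes. The edgeR adjusted p-values of the fibroblast calls were 1.45e-16 (Cxcl14), 4.56e-17 (Ccl11) and 4.00e-17 (Cxcl13).

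The monocyte attractants Ccl2 and Ccl7, and also Ccl8, were carried by few fibroblasts. Ccl2 was 214, 282, 566 and 10.2 CPM, and 53.7% to 100% of its UMIs in a library were in 1 barcode. Ccl7 was 64.8, 231, 44.5 and 5.12 and Ccl8 31.8, 49, 41 and 0. Myeloid cells held Ccl2 at 43.8, 79.6, 60.9 and 40.5 and its receptor Ccr2 as given above. Cxcl5 in fibroblasts was 116, 156, 248 and 5.12, on 1 UMI in VApcMinL replicate 2.

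Cxcl1, Cxcl2 and Cxcl3 lie near one another on chromosome 5, with Cxcl15 between Cxcl3 and Cxcl1. The promoters of Cxcl1, Cxcl2 and Cxcl3 hold a shared NF-kB-like motif, and the first 2 carry the genotype calls described further on. The 100 bases before the annotated start of each are shown because they hold that motif, on the plus strand of GRCm38.p6 from RefSeq, with matches to GGNNNTTCC on either strand in capitals.
Cxcl1: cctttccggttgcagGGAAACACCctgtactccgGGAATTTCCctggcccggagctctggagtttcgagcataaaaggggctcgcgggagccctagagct
Cxcl2: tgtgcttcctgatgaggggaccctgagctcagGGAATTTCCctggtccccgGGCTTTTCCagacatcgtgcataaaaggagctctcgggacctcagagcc
Cxcl3: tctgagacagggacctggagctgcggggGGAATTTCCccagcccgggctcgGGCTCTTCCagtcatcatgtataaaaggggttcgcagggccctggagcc
They lie at chr5:90891141-90891240, chr5:90903771-90903870 and chr5:90786001-90786100. Each stretch held 2 matches, the nearer ending 57, 40 and 40 bases before the start. RefSeq promoter windows were matched for 34 of the 47 members, and 12 of them (35.3%) held this motif in the 250 upstream bases, against 15.7% of all 32851 windows. The 12 were Ccl1, Ccl12, Ccl20, Ccl21a, Ccl9, Ccr6, Cx3cl1, Cxcl1, Cxcl10, Cxcl2, Cxcl3 and Cxcl9. The TCF/LEF-like letters CTTTGAT stood in 3.21% of all windows and in that of 1 member, Cxcl12. A match is a description of letters and not a site.

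These 3 genes differed by class. Cxcl1 was highest in fibroblasts at 693, 98, 144 and 41 CPM, beside 85.1, 21.5, 0 and 25.6 in myeloid and 14.6, 4.34, 2.61 and 8.39 in epithelial cells. Cxcl2 was highest in myeloid cells, as given above, and stood at 263, 70.0, 87.3 and 20.5 in fibroblasts. Cxcl3 was 122, 213, 26.8 and 371 in myeloid cells and under 0.5 in the epithelium. Their receptor Cxcr2 had 101 UMIs in all gated barcodes, 15, 10.0, 26 and 38 of them epithelial in the 4 libraries, at 0.291 to 0.544 CPM. Granulocytes, which carry CXCR2, were at most 2 barcodes in a library.

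Endothelial cells, read in the kit 2 libraries only, held Ccl21a and Cxcl12. Ccl21a, the CCR7 ligand of lymphatic endothelium, was 3004 and 613 CPM and was in 10.3% and 10.6% of thinned barcodes, with 44.1% and 25.2% of its UMIs in 1 barcode. Cxcl12 was 749 and 358, in 46.8% and 28.8% of thinned barcodes. It was also a fibroblast gene at 278, 112, 44.5 and 25.6. Ccl21a has near-identical copies (Ccl21b and Ccl21c). Identifiers of these copies held 2 UMIs or none in gated barcodes, against 2774 for Ccl21a. How reads that match several copies were counted was not tested. Both calls held with edgeR (adjusted p = 1.39e-14 and 6.48e-16).

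Mast cells, read in VApcMinL replicate 1 and ApcMin replicate 2, carried Cx3cr1 at 189 and 195 CPM and Ccl4 at 255 and 519 (edgeR adjusted p = 8.34e-08 and 9.52e-10). Ccl1 was 198 and 0, on 42 and 0 UMIs. Ccl2, Ccl7 and Ccl17 were called in mast cells too, but each lost its call when 1 of these libraries was left out.

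The other 16 members had under 20 UMIs. These were Cxcr1, Cxcl15, Ccl26, Ccl27b, Ccr8, Ccr1l1, Ccr3, both Ccl19 and both Ccl27 identifiers, both Ccl21b and both Ccl21c identifiers, and the second Ccl21a identifier. Of these, 8 had no UMI.

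Genotype was compared within each class with all 4 libraries, the kit as a block (edgeR, Benjamini-Hochberg adjustment over all genes of the class). Few genes were called. In epithelial cells 0 of 14543 genes and 0 of 35 members were called (0% of genes), with 39 genes and 3 members at an unadjusted p under 0.05, and DESeq2 called 0 members. Xist was not called there either, with a log2 difference of 11.28 (edgeR, adjusted p = 0.427), so the lack of calls does not show a lack of difference. In fibroblasts 2 of 14 members were called (0.117% of 6830 genes), both lower in the libraries labelled VApcMinL. In T cells 1 of 14 was called lower (0.051% of 5883 genes) and in myeloid cells 1 of 26 higher (0.0375% of 5329 genes). In plasma cells 0 of 4 were called (0.694% of 3603 genes), with 1 member at an unadjusted p under 0.05 and none called by DESeq2. Median log2 differences over the members were -0.23 in epithelial cells, -0.36 in fibroblasts, -0.02 in T cells, -0.16 in myeloid cells and 0.27 in plasma cells, and over all genes between -0.01 and 0.02. Without the kit block 0 members were called in any of these classes, with an adjusted p of 1.00 for Cxcl1 in fibroblasts (edgeR). The kit block cannot be kept with 1 library left out, and the lone library of a genotype is then assumed to vary like the other genotype, so such fits are given by their log2 difference alone. Genotype was not tested in mast, endothelial or B cells. Xist was itself called in T cells, plasma cells, fibroblasts and myeloid cells, so the sex that it marks and the genotype label cannot be told apart.

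Cxcl1 in fibroblasts was 693, 98, 144 and 41 CPM on 567, 42, 81 and 8 UMIs. It was lower in the library labelled VApcMinL within each kit. The fitted log2 difference was -2.56 (edgeR, adjusted p = 0.00135), and the differences within kit 2 and kit 3 were -2.81 and -1.74. The groups did not overlap. The log2 difference was -0.93 without ApcMin replicate 1, -3.36 without ApcMin replicate 2, -3.50 without VApcMinL replicate 1 and -2.16 without VApcMinL replicate 2. At a floor of 2000 UMIs the adjusted p was 0.0522 (edgeR). Cxcl1 was in 29, 11, 8 and 4 fibroblasts, and 31.4% to 38.3% of its UMIs were in 1 of them. Without that barcode in each library the levels were 480.3, 64.6, 90.6 and 26.9, the log2 difference -2.64 and the adjusted p 0.409 (edgeR).

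Cxcl2 in fibroblasts was 263, 70.0, 87.3 and 20.5 CPM on 215, 30, 49 and 4 UMIs. The value of VApcMinL replicate 2 is near the 15.4 CPM that a level of 0 still allows there. The log2 difference was -2.01 (edgeR, adjusted p = 0.0221), with differences of -1.89 and -1.94 within the kits, again without overlap. The log2 difference was -0.78 without ApcMin replicate 1, -2.53 without ApcMin replicate 2, -3.23 without VApcMinL replicate 1 and -1.38 without VApcMinL replicate 2. The call was lost with DESeq2 (adjusted p = 1.00), and in edgeR with Scrublet removal (0.611), at a floor of 2000 UMIs (0.135) and at a mitochondrial limit of 10% (0.125). The barcode with the most held 45.6%, 60.0%, 95.9% and 100% of the UMIs, and without it the log2 difference was -2.43 (edgeR, adjusted p = 0.112). Of the fibroblasts with Cxcl1, 8 of 29, 3 of 11, 2 of 8 and 1 of 4 also held Cxcl2. Saa3, an acute-phase gene called in the same test and named after its values were seen, was 2209, 432, 910.3 and 307 CPM. Ccl11 (log2 -1.76, adjusted p = 0.194), Cxcl12 (-1.24, 0.510) and Ccl2 (-1.46, 1.00) did not pass with edgeR.

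Immediate early genes, which dissociation can induce, were read beside these values. Their summed level over 11 genes in fibroblasts was 9732, 5844, 2299.8 and 3039 CPM, highest in ApcMin replicate 1, the library with the most Cxcl1. In kit 3 the order of the genotypes was the reverse. Of the 11 genes, 0 were called between genotypes in fibroblasts, with a median log2 difference of -0.25. In T cells, where Cxcl2 was called too, they summed to 7237.5, 3613, 5819 and 5785.5 CPM. That was lower in the library labelled VApcMinL in kit 2 and almost equal in kit 3. There 0 of the 11 were called, with a median log2 difference of -0.30. The part of these genes in the Cxcl1 and Cxcl2 results was not tested.

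Cxcl2 in T cells was 171, 6.3, 175 and 38.9 CPM on 77, 4, 36 and 22 UMIs (log2 -3.10, edgeR adjusted p = 0.00151; within kits -4.61 and -2.16). The libraries labelled ApcMin were both above those labelled VApcMinL. These UMIs came from 9, 4, 2 and 6 barcodes, and 1 barcode held 45.5, 25, 86.1 and 59.1% of them. The log2 difference was -2.87 without ApcMin replicate 1, -3.09 without ApcMin replicate 2, -2.22 without VApcMinL replicate 1 and -4.65 without VApcMinL replicate 2. Without the barcode with the most UMIs in each library it was -2.64 (edgeR, adjusted p = 0.145), and at a mitochondrial limit of 10% -3.12 (0.0962). Of these barcodes 2, 2, 0 and 0 also held Ccl5, and 3, 2, 2 and 1 held the T cell gene Cd3e. Gata3 was in 9, 1, 1 and 3 of them and Il7r in 6, 0, 2 and 5. These genes were looked up after the values were seen. Of all 188, 260, 66 and 220 T cell barcodes, 132, 219, 44 and 173 held Ccl5 and 137, 213, 57 and 187 held Cd3e. Gata3 was in 39, 34, 16 and 36 of all T cell barcodes and Il7r in 47, 27, 18 and 56. Whether the barcodes with Cxcl2 are T cells was not tested. Myeloid markers summed to 66.8, 55.1, 112 and 56.5 CPM in T cells, against 15183 or more in myeloid cells.

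Ccl22 was the myeloid call. Its level was 2.58, 127, 2.44 and 74.7 CPM, a log2 difference of 5.19 (edgeR, adjusted p = 0.0430). All its UMIs (2, 59, 1 and 35) were in 1 barcode of each library, so the comparison is one of single barcodes. The log2 difference was 4.61 without VApcMinL replicate 1. In the libraries labelled VApcMinL the same barcode held 24 of 25 and 7 of 7 Ccr7 UMIs and 372 of 453 and 79 of 374 Ccl17 UMIs, and it held no C1qa. Ccl22 and Ccl17 are CCR4 ligands of dendritic cells, and Ccr7 marks those that migrate. Ccl17 was 92.8, 975, 173 and 798 in myeloid cells with groups that did not overlap, at an adjusted p of 0.185 (log2 2.74, edgeR), and was called by DESeq2 (adjusted p = 7.90e-07). Without the barcode with the most Ccl17 in each library the log2 difference was 2.38 (edgeR, adjusted p = 0.338). The 453 and 374 Ccl17 UMIs of the libraries labelled VApcMinL came mostly from the barcodes outside the macrophage sub-gate (453 and 247).

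**Figure D4:**
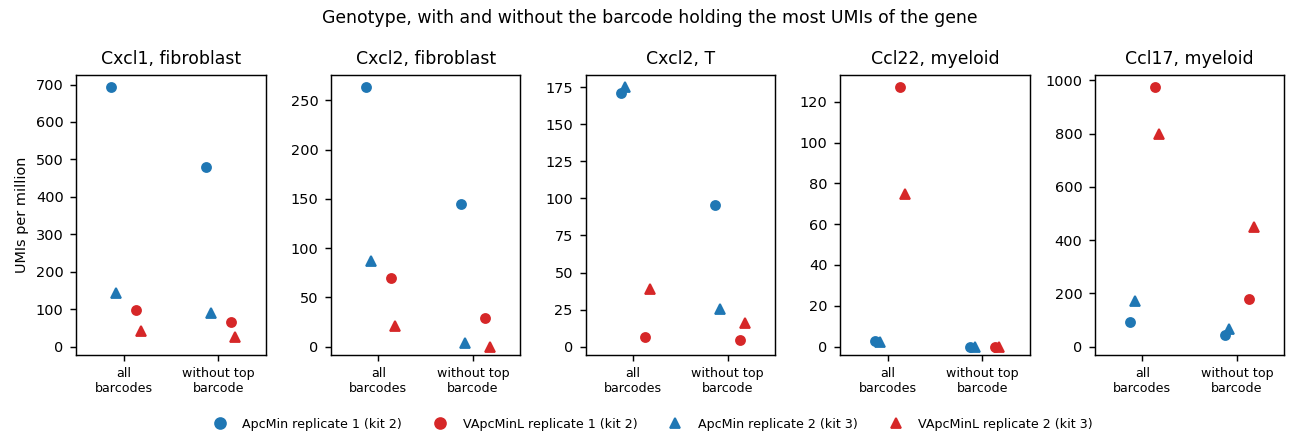
CPM (linear axes from 0) in 5 gene and class combinations, 1 point per library, with all barcodes on the left and without the barcode holding the most UMIs of the gene on the right of each panel, symbols as for the sub-gates. Ccl22 drops to 0 in all 4 libraries and Cxcl1 keeps its order within each kit.

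In epithelial cells the members with the smallest p were Ccl21a (log2 -3.22), Ccl11 (-3.05), Ccl5 (1.11), Cxcl14 (-1.62) and Ccr10 (-1.14), with unadjusted p from 0.00870 to 0.190 and adjusted p of 1 in edgeR. Each is a gene whose highest level is in another class. Ccl21a in epithelial profiles was 9.1, 1.05, 0.0355 and 0 CPM, highest in ApcMin replicate 1, which was also the highest in endothelial Ccl21a. The part of free RNA in these values was not tested. Ccl25 in the epithelium had a log2 difference of -0.55 (adjusted p = 1.00, edgeR), with 0.45 in kit 2 and -1.40 in kit 3. Within the enterocyte sub-gate it was 357 and 350.1 CPM in kit 2 and 682 and 677 in kit 3, so the libraries of a kit were alike there. In plasma cells the 4 members tested were Ccl5 (0.77), Ccr10 (0.44), Ccl25 (-0.34) and Ccr9 (0.11), none of which passed.

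Genes of the chemokine system outside the symbol rule were counted for comparison, 26 in all, including atypical receptors, G protein signalling and integrins. Of the 23 tested, 14 were called higher in myeloid cells (15.8% of all genes), 11 in T cells (12.5%), 8 in endothelial (15.9%) and 8 in mast cells (6.72%). In fibroblasts 7 were called (17.9%), in plasma cells 5 (13.2%) and in the epithelium 1, Dpp4 (20%). Their median log2 difference was 2.53 in myeloid and 1.28 in T cells, beside -0.01 and 0.03 over all genes. The scavenging receptor Ackr3 was 102, 21, 99.8 and 61.5 CPM in fibroblasts, and Ackr1, an endothelial chemokine-binding receptor, was 139 and 152 in the kit 2 endothelial cells. Pf4, a CXC chemokine named outside the rule, was 747, 649.9, 455 and 717 in myeloid cells. In no class was any of the 26 called between genotypes (edgeR). Of 10 inducers and feedback genes of NF-kB, 9 were tested, and 6 of these were called higher in myeloid cells (15.8% of all genes), with Il1b at 1924, 1625, 1247 and 3220.1 CPM, and 2 in fibroblasts (Il1a and Icam1, 17.9% of all genes). None was called between genotypes. The 10 genes summed to 1104, 539, 392 and 251 CPM in fibroblasts and 1814, 578, 851 and 830.3 in T cells, lower in the library labelled VApcMinL in both kits, by little in T cells of kit 3. Their median log2 difference between genotypes was -0.85 over 5 tested in fibroblasts and -0.76 over 6 in T cells, beside -0.01 and 0.01 over all genes. Myeloid cells did not share this direction, at 2867, 2483, 1812 and 4191 CPM, higher in the library labelled VApcMinL in kit 3. The median there was 0.43 over 7 tested, and it was -0.08 over 7 in epithelial cells and 0.39 on 1 gene in plasma cells. The part of the 10 genes in the Cxcl1 and Cxcl2 results was not tested.

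Barcodes of 10 to 99 UMIs, under the floor set for cells, were read as well, and what they hold was not tested. Most members were far below their highest class there. Cxcl12 stood apart at 81, 58.3, 1490 and 1657 CPM, higher in the kit 3 libraries than in their fibroblasts (44.5 and 25.6). Cxcl9 was 2.02, 4.38, 72.9 and 78. Endothelial markers in the same barcodes summed to 1631, 1442, 3421 and 3745 CPM, also higher in kit 3, where only 8 and 7 endothelial barcodes were found. Their part in the Cxcl12 level was not tested. Xist in these barcodes was 204 to 629.5 in all 4 libraries.

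**Figure D5:**
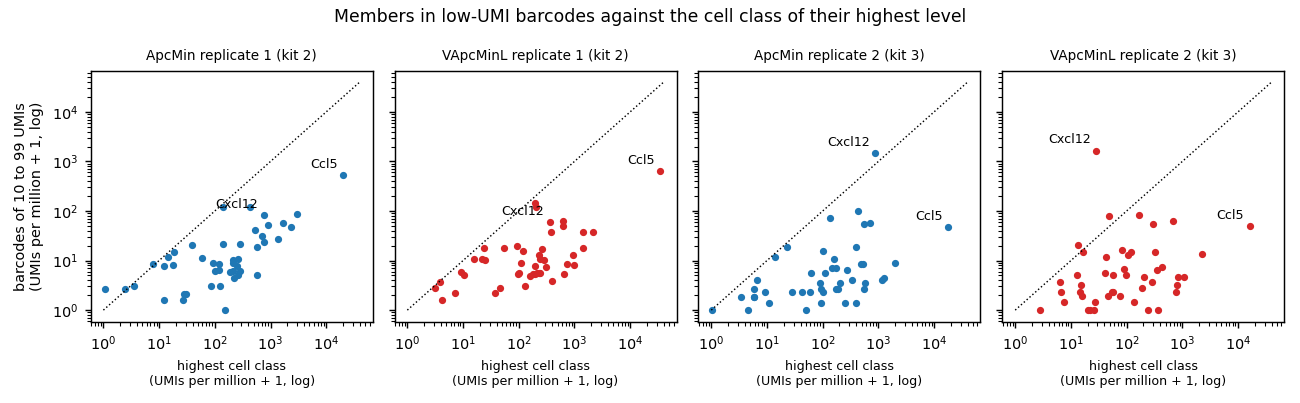
Level of each of 46 members in barcodes of 10 to 99 UMIs against its highest level in a class of at least 5 barcodes, both as CPM + 1 on log axes, 1 panel per library, with a dotted line of equality. Cxcl12 lies above the line in both kit 3 libraries, and Ccl5 is highest on the horizontal axis in all 4.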

How the data were processed

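Adenoma cells of 4 mouse libraries were measured by droplet 3′ single-cell RNA sequencing. The authors deposited raw UMI counts per gene and barcode, unfiltered. The submitters' processing notes name Cell Ranger 2.1.1, Seurat 3.1.1 and mm10, and the kit 3 matrix headers give 3.1.0. The members and gene lists were chosen with earlier results of these data known, and gate thresholds were set after the marker counts had been seen.

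Barcodes with at least 1000 UMIs and at most 20% mitochondrial UMIs were gated by distinct markers detected (2 for T cells, 3 for B cells, 4 for plasma, myeloid and mast cells and fibroblasts, 5 for epithelial and endothelial cells), with epithelial marker share limited to 40% of the epithelial median elsewhere. Barcodes in the gates of 2 or more classes were left out (15 to 68 a library) and no doublet caller was run in the reported values. Shares with a UMI were thinned to 1000 UMIs. UMI sums per library and class with at least 10 barcodes were tested with edgeR 4.0.16 (TMM, filterByExpr with a minimum count of 10, quasi-likelihood) in R 4.3.3, with the library as block between classes and the kit as block between genotypes. The kit comes from the labels, where it follows the replicate number. Deviations of same-kit libraries from their group means correlated at 0.0712 in epithelial cells and at 0.354 to 0.482 in the other classes. The tests were run on counts simulated at a dispersion of 0.05, with 200 genes changed by a log2 of 2. They recovered 195 to 200 of these, with 1 to 7 false calls. The simulated counts held no kit effect and no UMIs gathered in 1 barcode, so they cannot check calls that rest on few barcodes.

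Named are the members with at least 20 UMIs (1 of them is not reported here), the members called higher per class (up to 10 by level), the members called between genotypes or else the 5 with the smallest p, and known ligand and receptor pairs. Alternatives were DESeq2 1.42.0, its size factors, no filter, 2000 UMIs, a 10% mitochondrial limit, a stricter gate, Scrublet (scanpy 1.11.5), no block and each library left out. Added after the data were seen were a minimum of 5 barcodes, removal of the barcode with the most UMIs, and the sub-gate tests. Coordinates and RefSeq windows are on GRCm38. Intervals and floors cover counting error only.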

Additional observations from a re-analysis of the deposited data

Results flagged for a closer look

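Some differences between the library labelled VApcMinL and the library labelled ApcMin took opposite signs in the 2 kits, each at least 2-fold, and these differences between kits were not tested. In epithelial cells the log2 difference was 1.80 in kit 2 and -1.61 in kit 3 for Ccl24, -1.57 and 2.68 for Ccl4, -1.74 and 1.68 for Cxcl1, and -1.07 and 1.41 for Cxcr4. In myeloid cells it was -1.92 and 4.45 for Cxcl1, and in fibroblasts 1.83 and -2.56 for Ccl7. Barcodes of 10 to 99 UMIs, which enter no comparison, held Cxcl12 at 1657 CPM in VApcMinL replicate 2, against 27.3 in its highest cell class of at least 5 barcodes.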

How the results depend on the processing

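The kit block changed calls, and without the replicate block 0 members were called between genotypes in T cells, fibroblasts and myeloid cells, where 1, 2 and 1 had been. Without the block, 12, 8, 7, 6 and 7 members were called in T cells over other classes, Wnt-high over enterocyte, Paneth/goblet over enterocyte, cytotoxic over helper or regulatory T, and macrophage over other myeloid barcodes. With no filter the counts were 4 in endothelial (9.54% of all genes called) and 9 in epithelial cells (18.5%), 11 between T sub-gates (5.32%), 19 between myeloid sub-gates (7.47%), and 2 in T cells (0.251%), 5 in fibroblasts (0.249%) and 3 in myeloid cells (0.392%) between genotypes. The genotype count in fibroblasts was 1 with DESeq2, with Scrublet and at the 10% mitochondrial limit, and 0 at 2000 UMIs. In myeloid cells it was 2 with DESeq2, with Scrublet and at the 10% limit, and 0 with the stricter gate, and in T cells 0 at the 10% limit. Leaving out each library in turn gave 0 to 1 members in T cells, 0 to 3 in fibroblasts, 0 to 3 in myeloid and 0 to 1 in plasma cells between genotypes, in fits with no kit block where a lone library was assumed to vary like the other genotype, and 3 to 6 in mast cells over other classes (3 without VApcMinL replicate 1). Genotype differences that turned sign without 1 library had log2 values from -1.52 to 0.29 (Ccl4, T), -11.27 to 3.79 (Ccl21a, epithelial), -2.19 to 4.43 (Ccl5, epithelial, with -0.12 between), -3.52 to 0.0054 (Cxcl14, epithelial), -3.06 to 0.99 (Ccr10, epithelial), -2.81 to 0.77 (Cxcl12, fibroblast), -1.45 to 4.11 (Ccl5, plasma) and -0.66 to 1.09 (Ccr9, plasma) over the 4 libraries left out, and the stricter gate gave -0.056 (Ccl5, plasma). The cause was not tested. Over single members and alternatives, 823 of the values between classes kept their side of the threshold and 26 lost it, and between genotypes 261 kept it, 23 lost it, 12 gained it and 10 turned sign. Ccl22 without its top barcode had too few counts for a value.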
